A study of Mus musculus with 9 samples.

Results

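Rod bipolar cells were taken from the retina as the cells with at least 20 Trpm1 UMIs per 10000 UMIs, at least 1 Grm6 UMI, and at least 5 UMIs per 10000 of Prkca, Car8 and Sebox together. A UMI (unique molecular identifier) stands for 1 captured RNA molecule. The rule found 1100 rod bipolar cells among 31089 cells (3.54%), with 513 in control mice and 587 in double knockout (dKO) mice. The cells were thus chosen by the levels of these 5 genes, so the height of those genes against other cells is a description and carries no test.

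The study induced the loss of the microRNAs miR-204 and miR-211 in the retinal pigment epithelium (RPE) of young mice and sequenced single cells of the retina 6 months later. By the labels, all 9 mice, controls included, carried RPE65-ERT2-Cre with the miR-211fl and miR-204fl alleles, whereas the study's text on imaging and electrophysiology describes controls that lacked Cre and received tamoxifen. The 5 dKO mice (S05 to S09) were injected with tamoxifen at 75 mg/kg on 5 days from postnatal day 28, and the 4 control mice (S01 to S04) received the corn oil in which it was dissolved. The Cre is driven in the RPE, so rod bipolar cells were not the cells in which the alleles were to be deleted, and with the treatments on the labels the deletion and the tamoxifen itself cannot be told apart. The cells of a mouse formed 1 sample, each mouse was barcoded separately, and the labels give 1 animal number to both S06 and S07, which the study counts as different mice.

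Rod bipolar cells carry the signal of rods to the inner retina. Their dendrites sense rod glutamate through mGluR6, a receptor that acts through the G protein Go to close the TRPM1 channel in darkness, and light reverses this and depolarizes the cell. Their axon terminals end deep in the inner plexiform layer and release glutamate at ribbon synapses onto AII and A17 amacrine cells, under GABA and glycine inhibition, and protein kinase C alpha (Prkca) is their classical marker.

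Trpm1, which defined the cells, is also the host gene of miR-211, and Trpm3 is the host of miR-204. The mature 5p sequences from RefSeq are shown because these are the microRNAs that the study deleted. Bases 2 to 8, the seed, are in capitals.
mmu-miR-211-5p: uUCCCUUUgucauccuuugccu
mmu-miR-204-5p: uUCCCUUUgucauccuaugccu
The seeds were identical, and counted from the 5′ end the sequence of miR-211 differs from that of miR-204 by U17A. On GRCm39, miR-211-5p lies at chr7:63855579-63855600 in an intron of Trpm1 and miR-204-5p at chr19:22727974-22727995 in an intron of Trpm3, both on the plus strand. The microRNAs themselves are not among the 37725 genes counted, so in rod bipolar cells only the host transcripts were measured. Trpm1 CPM (UMIs per 1000000 UMIs of the rod bipolar cells of a mouse) was 7901, 6349, 7466 and 6641 in S01 to S04 (control) and 4994, 6794, 4330, 7430 and 8519 in S05 to S09 (dKO). The groups overlapped, with S05 and S07 the lowest of the 9 mice. Trpm3 was at 333 ± 193 CPM over the 9 mice (SD).

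Of 14 further genes known from rod bipolar cells that the rule did not use, 7 (50%) were higher than in the cells called ON cone bipolar below, without overlap of the ranges over the 9 mice, and 0 were lower. Of 6133 genes with a mean over both types of at least 20 CPM, 316 (5.15%) were higher in this way and 432 (7.04%) lower. Among them, Vstm2b was at 418 ± 87.5 CPM against 25.7 ± 9.30 CPM (SD, n = 9 mice). Among the 1816 cells past the Trpm1 and Grm6 thresholds, which together are called ON bipolar cells here, Prkca, Car8 and Sebox fell into separate ranges: 428 cells had under 1 UMI per 10000 of the 3 genes and 1035 had at least 50, with only 9 cells from 4 to 5 and 9 from 5 to 6. The 716 cells below the threshold are called ON cone bipolar cells here. Trpm1 was under 25.8 UMIs per 10000 in 25% of them, close to the threshold of 20, and under 60.3 in 25% of rod bipolar cells. Any ON cone bipolar cells with less Trpm1 were left out, so comparisons with this type hold for the part taken. The median Prkca level was 164 UMIs per 10000 in rod bipolar cells, 0.721 in ON cone bipolar cells and 8.60 in the remaining cells, where the first 2 values follow from the threshold. Sebox, a homeobox gene, had a UMI in 51% of rod bipolar cells, 0.419% of ON cone bipolar cells and 1.06% of the remaining cells. Median depth was 16383.5 UMIs per rod bipolar cell, 14620.5 per ON cone bipolar cell and 7322 over all cells that were not rod bipolar cells. At the Trpm1 threshold, 42 cells that met the other criteria lay just inside (20 to 25 per 10000) and 42 just outside (15 to 20). Median depth was 32851.5 UMIs in those inside and 13513.5 in those outside. Their median level of rod photoreceptor markers was 44.3 and 17.6 UMIs per 10000, against 4.47 over all rod bipolar cells. A further 45 cells lacked only the Grm6 UMI, and their median depth was 2496 UMIs.

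**Figure D1:**
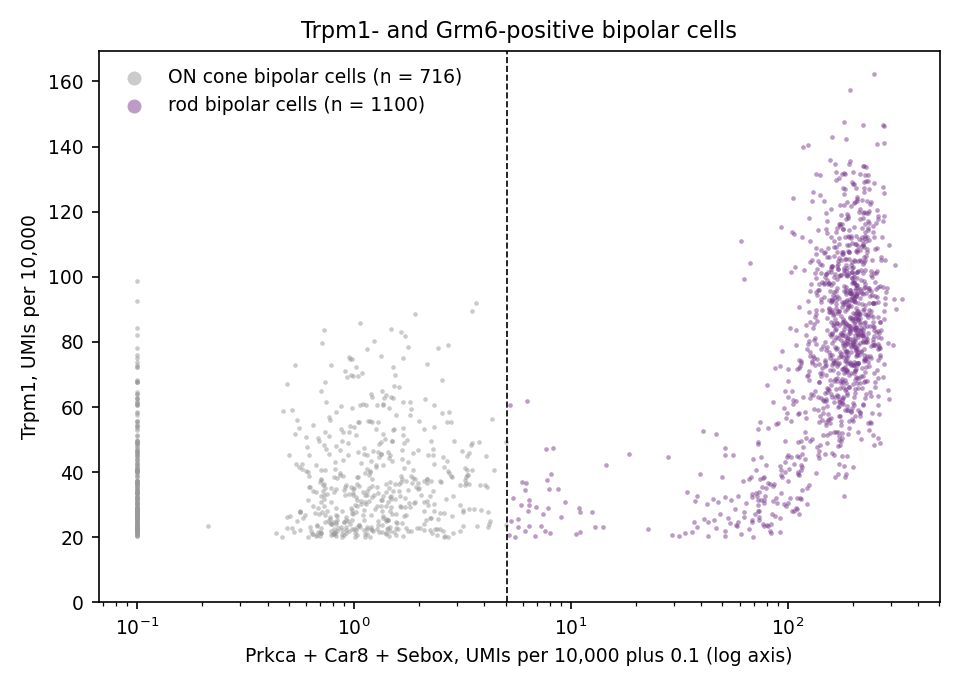
Each point is 1 of the 1816 ON bipolar cells. The horizontal axis gives the UMIs of Prkca, Car8 and Sebox together per 10000 UMIs, plus 0.1, on a log axis, the vertical axis gives Trpm1 per 10000, and the dashed line is the threshold of 5. The 716 ON cone bipolar cells (grey) lie left of it and the 1100 rod bipolar cells (purple) right of it, most of them far from the line, with only 65 rod bipolar cells between 5 and 50.

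Rod bipolar cells of S04, S05 and S07 stood apart from those of the other 6 mice. These mice gave 22, 28 and 78 rod bipolar cells against 128 to 196 in each of the others, and 0.738%, 0.581% and 0.886% of their rod bipolar UMIs fell on 10 rod photoreceptor markers, against 0.0758% to 0.194% in the others. They were also the only mice with Y-linked transcripts in bulk: Uty was at 212 CPM or more in them and at most 1.83 CPM in the others. S06 and S07, which share an animal number on the labels, differed here as a female and a male mouse would. Uty was at 1.44 CPM in S06 and 219 CPM in S07, and Xist at 1578 and 38.1 CPM. Summed rod bipolar UMIs per mouse ranged from 345297 to 4855637, and 3 UMIs, used as the limit below which a level is not told from 0, corresponded to 0.618 to 8.69 CPM. No cell barcode was shared between mice. By a level of at least 10 UMIs per 10000 on the markers of another cell type other than rods, 99 rod bipolar cells (9%) were candidate doublets, with a median of 33925 UMIs against 15975 in the others.

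The share of rod bipolar cells did not separate the groups. It was 4.48%, 3.31%, 5.50% and 0.812% of all cells in control mice and 1.73%, 4.73%, 1.66%, 4.19% and 4.33% in dKO mice. The means were 3.53% ± 2.02 (SD, n = 4) and 3.33% ± 1.51 (SD, n = 5), a difference of -0.198 percentage points (exact permutation test, two-sided, p = 0.889, adjusted over 4 such tests 0.889; the smallest p this design allows is 0.0159). The low values were those of S04, S05 and S07. Without these 3 mice the shares were 4.43% ± 1.09 (SD, n = 3) and 4.42% ± 0.283 (SD, n = 3). The counting interval of a single mouse (exact binomial, 95%) was as wide as 4.74% to 6.34% in S03 and covers counting error only. A share of cells depends on how well every cell type came through dissociation, so fewer rod bipolar cells and more of the others cannot be told apart.

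Within the ON bipolar cells, where dissociation acts on both types, rod bipolar cells made up 58.5%, 54.2%, 62.9% and 64.7% in control mice and 63.6%, 64.9%, 65.0%, 63.8% and 55.7% in dKO mice. The 3 mice with few rod bipolar cells in all were at 63.6% to 65.0% on this scale and no longer stood apart. The means were 60.1% ± 4.68 (SD, n = 4) and 62.6% ± 3.90 (SD, n = 5), and they did not differ beyond the spread of the mice (exact permutation test, two-sided, p = 0.397, adjusted 0.889). In median UMIs per rod bipolar cell, control mice were at 15539 ± 1314 (SD, n = 4) and dKO mice at 16525 ± 2610 (SD, n = 5; exact permutation test, p = 0.635, adjusted 0.889).

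**Figure D2:**
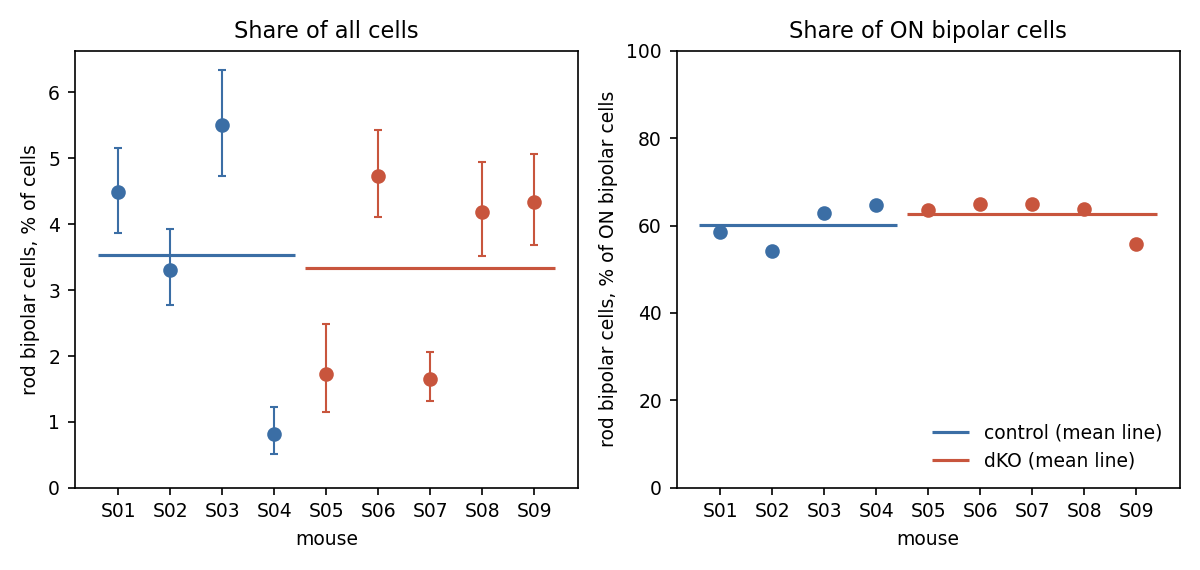
Points are mice, control in blue and dKO in red, with the mean of each group as a line. The left panel gives rod bipolar cells in percent of all cells with exact 95% binomial intervals and the right panel in percent of ON bipolar cells. The low shares of S04, S05 and S07 on the left (0.812% to 1.73%) are not seen on the right, where the 9 mice lie between 54.2% and 65.0%.

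All 18 genes of the mGluR6 cascade had a mean over both types of at least 20 CPM. Lrit3 was lower in rod bipolar cells of S01, S03, S08 and S09, at 13.4, 13.5, 14.7 and 11.6 CPM. Of the 16 that are not rule genes, 4 (25%) were above ON cone bipolar cells without overlap of the ranges over the 9 mice, beside 5.15% of all genes, and 2 (12.5%) were below, beside 7.04%. Those above included Rgs7, Gnao1 and Pcp2. Rgs7, the RGS protein that speeds Go deactivation with Rgs11, was at 3821 ± 811 CPM in rod bipolar and 872 ± 67.2 CPM in ON cone bipolar cells (SD, n = 9 mice), whereas Rgs11 went the other way, at 133 ± 32.8 and 177 ± 30.7 CPM, in 9 of 9 mice. Gnao1, the Go alpha subunit, was at 1831 ± 296 and 1137 ± 82.8 CPM. Pcp2, a GoLoco protein that binds Go, was at 269 ± 64.5 and 51.0 ± 18.2 CPM.

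The receptor end of the cascade was not raised in the same way. Grm6 itself was lower in rod bipolar cells than in ON cone bipolar cells in all 9 mice, at 440 ± 66.6 against 651 ± 93.6 CPM, although the ranges overlapped. Both types had been chosen by Grm6 and Trpm1, so this is a description of the chosen cells. Nyx, which encodes the nyctalopin that anchors TRPM1 at the dendritic tips, was at 68.9 ± 8.82 against 157 ± 34.6 CPM, and Rgs7bp, an anchor of RGS7 at the membrane, at 177 ± 31.9 against 343 ± 31.5 CPM. Nyx and Rgs7bp were the 2 cascade genes whose ranges lay below. Gpr179, the orphan receptor that holds the RGS complex, was higher in 8 of 9 mice, at 782 ± 143 against 502 ± 34.9 CPM. Rgs9bp and Lrit3 reached their highest rod bipolar levels in S05 and S07 (143 and 216 CPM for Rgs9bp, 69.2 and 67.7 CPM for Lrit3). In cells outside the rod bipolar class Rgs9bp was at 209 CPM, between its levels in S05 and S07. Lrit3 was at 101 CPM there, above its level in both. S05 and S07 were also high in rod marker RNA, as was S04, where Rgs9bp was at 113 CPM but Lrit3 at 23.2 CPM, under the 43.0 CPM of S02. The part of rod RNA in these levels was not tested.

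**Figure D3:**
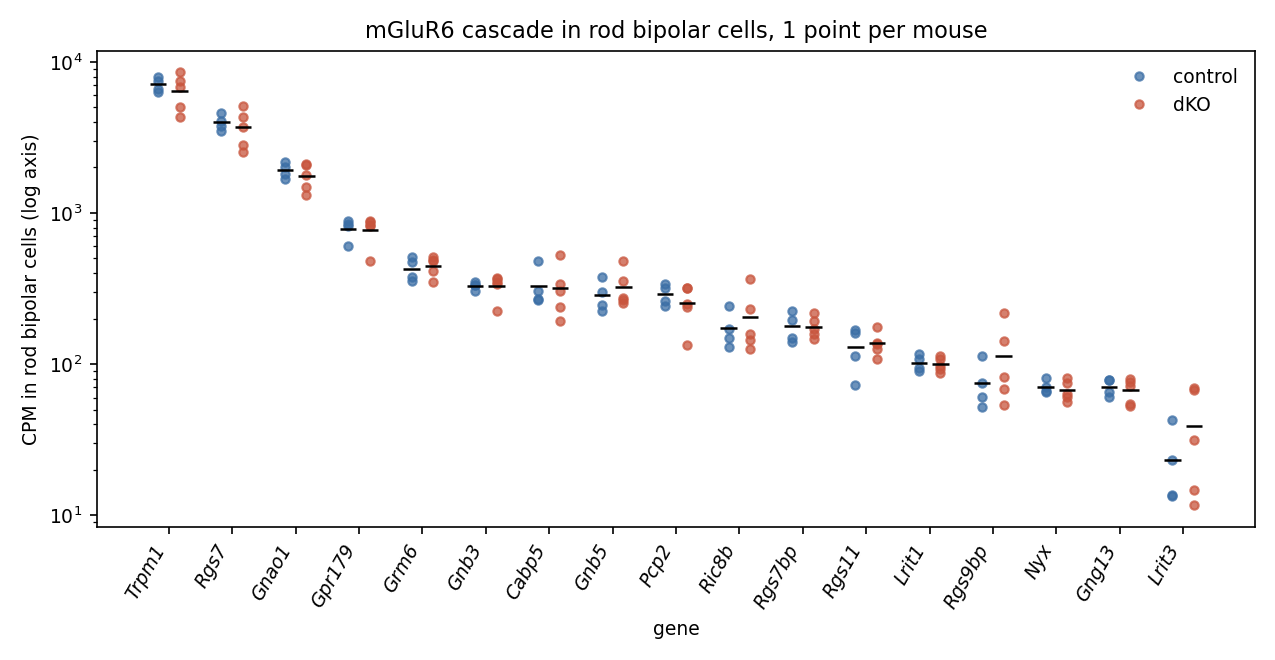
Each point is the CPM of 1 of 17 cascade genes in the rod bipolar cells of 1 mouse (log axis), control in blue and dKO in red, with black lines at the group means. The groups overlap for all 17 genes shown, and the dKO points furthest below the rest for Trpm1 and Rgs7 are S05 and S07.

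Long noncoding RNA (lncRNA) genes and protein-coding genes both held leading places among the genes of rod bipolar cells. The 20 genes with the highest ratio to all other cells were taken (CPM plus 1, found in at least 25% of rod bipolar cells). Of these, 19 had a locus in the annotation, 8 of them lncRNA genes and 11 protein-coding. The share of lncRNA genes among all genes counted was not worked out, so no excess is read from this. Gm30725, a lncRNA on the minus strand at chr1:190106925-190177052, led with 467 ± 101 CPM in rod bipolar cells against 2.68 CPM in all other cells, and was found in 93.8% and 2.10% of cells. 5730419F03Rik followed with 339 ± 58.2 against 3.76 CPM. Both were near absent from the sister type as well, at 6.07 ± 4.99 and 6.77 ± 4.48 CPM in ON cone bipolar cells. Among the protein-coding genes, Wnt5b, a secreted Wnt ligand, was at 293 ± 61.8 CPM against 10.8 CPM in all other cells, and Strip2, a subunit of the STRIPAK phosphatase complex, at 1181 ± 244 against 41.3 CPM.

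Against ON cone bipolar cells the highest ratio belonged to a neighbour of Prkca. Cep112, which encodes a centrosomal coiled-coil protein, was at 1836 ± 381 CPM in rod bipolar cells and 11.6 ± 6.74 CPM in ON cone bipolar cells, and its gene lies 80.8 kb from that of Prkca on chromosome 11, on the opposite strand. Prkca was at 13119 ± 2809 against 99.8 ± 27.0 CPM. Ptprr (a receptor-type tyrosine phosphatase), Lrrtm4 (a postsynaptic adhesion protein of the GABAergic feedback synapses of these cells), Sorcs3 and the acid-sensing channel Asic2 were at least 47.9 times higher (CPM plus 1), for example Lrrtm4 at 6360 ± 1557 against 65.2 ± 25.2 CPM.

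Among the genes low in rod bipolar cells, Reln, which encodes the secreted glycoprotein reelin, was at 221 ± 208 CPM in rod bipolar and 3108 ± 412 CPM in ON cone bipolar cells. The potassium channel gene Kcnb2 was at 251 ± 120 against 3244 ± 284 CPM, and Vsx1, a homeobox gene of cone bipolar types, at 11.1 ± 10.3 against 179 ± 16.3 CPM. Gm48606 is a lncRNA that the study reports as lower in RPE cells and Müller glia of dKO mice. It was at 24.7 ± 27.1 CPM in rod bipolar cells and 382 ± 158 CPM in ON cone bipolar cells. Of the 15 lowest ratios, Adamtsl3 was the 1 whose ranges overlapped.

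Promoters of the leading genes did not share a simple homeodomain core. For 16 of the 23 genes that are either rule genes or among the 20 leaders, RefSeq promoter windows (250 bases before to 50 after the start) were at hand. GGATTA, the core bound by OTX2 and CRX, was searched on both strands and found for 1 of the 16 (6.25%) against 8.14% of 27025 genes. TAATTA, which shares the letters ATTA with it, was found for 1 (6.25%, Pcp2) against 6.12%. The match of Trpm1 is shown because this gene defined the cells and hosts miR-211. It lies on the plus strand at chr7:63803537-63803566 of GRCm39, with the motif in capitals at position -34 from the start of transcription.
Trpm1 promoter: cggggggagtagGGATTAaggctgattaca
The shares were near those of all genes, and a match of letters is not a binding site.

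Transcription factors of bipolar cells divided into those shared by both ON types and those of 1 type. Of 13 at 20 CPM or more outside the rule, 2 (15.4%, beside 5.15% of all genes) were above ON cone bipolar cells without overlap. A further 3 (23.1%, beside 7.04%) were below. Prdm8, which rod bipolar cells need to survive, was at 135 ± 31.8 CPM against 37.8 ± 8.90 CPM in ON cone bipolar cells, higher in 9 of 9 mice without overlap. Isl1 (355 ± 104 against 423 ± 65.3 CPM) and Otx2 (237 ± 38.3 against 292 ± 20.8 CPM) overlapped. Bhlhe23, required for rod bipolar maturation, was at 46.0 ± 13.9 against 32.3 ± 9.42 CPM and higher in 7 of 9 mice. Vsx1, Lhx3 and Nfia were below in all 9 mice, Lhx3 at 6.87 ± 7.47 against 46.3 ± 8.35 CPM.

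At the ribbon synapse, rod bipolar cells held 4 of 24 genes (16.7%) above ON cone bipolar cells without overlap, beside 5.15% of all genes, and 1 (4.17%) below, a share near the 7.04% of all genes. Unc13b, a vesicle priming factor, was at 1944 ± 138 against 969 ± 152 CPM and Cacna2d3, an auxiliary calcium channel subunit, at 1289 ± 265 against 371 ± 60.5 CPM. Rims1, an active zone scaffold, was below at 106 ± 44.0 against 334 ± 77.0 CPM. Otof, the calcium sensor of hair cell ribbons, was at 0.141 CPM. Ribbon genes such as Ctbp2, whose product RIBEYE forms the ribbon, and the L-type channel gene Cacna1f were lower in all 9 mice with overlapping ranges.

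Receptors for inhibition were mostly lower in rod bipolar cells. Of 14 genes, 7 (50%, beside 7.04% of all genes) were below ON cone bipolar cells without overlap and 1 (7.14%, beside 5.15%) above. Glra1, the glycine receptor alpha1 subunit, was the 1 above, at 166 ± 23.2 against 44.1 ± 18.3 CPM. Those below included Gabrr2, Gabrr3, Gabrb1, Gabrb2, Gabbr1 and Gabbr2, with Gabrr2 at 532 ± 69.8 against 983 ± 117 CPM. Gabrr1, whose rho1 subunit carries the GABAC current of the terminal, overlapped at 236 ± 43.5 against 192 ± 25.1 CPM.

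Among 24 adhesion and lamination genes at 20 CPM or more, 6 (25%, beside 5.15% of all genes) were above ON cone bipolar cells without overlap and 8 (33.3%, beside 7.04%) below. Sdk1 (2596 ± 501 against 373 ± 112 CPM), Sdk2, Dscam, Dscaml1, Cntn4 (3178 ± 549 against 268 ± 123 CPM) and Cntn6 (484 ± 74.4 against 11.2 ± 4.33 CPM) were above. Sidekick, Dscam and contactin proteins are immunoglobulin superfamily adhesion molecules that take part in laminar matching in the retina. Cntn5, a contactin as well, was below at 420 ± 388 against 5130 ± 879 CPM, and so were Pcdh9, Cdh8 and Cdh9.

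Between dKO and control mice, no gene of rod bipolar cells passed the test. Counts were summed over the rod bipolar cells of each mouse, and the 11332 genes tested gave 0 calls at an adjusted p below 0.05 (edgeR quasi-likelihood test, Benjamini-Hochberg adjustment), 0% of the genes tested, and 0 by DESeq2 and by limma-voom. An unadjusted p under 0.05 was reached by 134 genes (1.18%) with edgeR, 74 of them higher in dKO mice, by 84 with DESeq2 and by 187 with limma-voom. Every dKO mouse was above every control mouse for 53 genes (0.468%) and below for 18 (0.159%), or 71 (0.627%) in either direction. On simulated counts with the depths of these mice, the test recovered 32% of genes with a log2 change of 1 and 97% of genes with a log2 change of 2. In these simulated counts a 2-fold change in a single gene (log2 of 1) was therefore missed more often than found. Each gene was drawn independently, without differences that many genes of a mouse share, so recovery in the real mice may differ. Smaller changes were not simulated.

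The genes of the rule are given between the groups as a description, since cells below its thresholds had been left out before the groups were compared. Prkca was at 13961 ± 1845 CPM in control (SD, n = 4) and 12445 ± 3457 CPM in dKO mice (SD, n = 5). The log2 fold change was -0.18 ± 0.22 (SE). In single mice it was 14528, 12606, 16322 and 12386 CPM in controls and 8577, 14333, 8905, 16077 and 14332 CPM in S05 to S09, so that S05 and S07 were again lowest. For Trpm1, Car8, Sebox and Grm6 the log2 fold changes were -0.15 ± 0.21, -0.12 ± 0.24, -0.12 ± 0.27 and 0.05 ± 0.17 (SE). S05 and S07 held more rod marker RNA than the 3 other dKO mice (0.581% and 0.886% against at most 0.167%). Control mouse S04 held 0.738%, with Trpm1 at 6641 CPM and Car8 at 1144 CPM, against 4994 and 757 CPM in S05. Without S04, S05 and S07 the fold changes of Trpm1, Prkca, Car8 and Sebox turned to 0.08, 0.05, 0.16 and 0.13. The part of rod RNA in these values was not tested.

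All gene lists stayed at 0 calls, and their counts are given beside the background of 0%. The 18 mGluR6 cascade genes, Trpm1 and Grm6 of the rule among them, had a median log2 fold change of -0.03 (6 above 0, 12 below) beside 0.0064 over all 11332 genes, and none had an unadjusted p under 0.05. The 14 further rod bipolar genes had a median of -0.06, the 24 ribbon and presynaptic genes 0.02, the 28 adhesion and lamination genes -0.01, the 19 potassium and HCN channel genes 0.08 and the 12 protein kinase C and phosphoinositide genes 0.00024. In the 14 genes of inhibitory inputs (median -0.02) 1 had an unadjusted p under 0.05, and in the 14 transcription factors tested (median 0.01) 1, Nfib. Nfib was at 36.7 CPM in control and 94.0 CPM in dKO mice but is abundant in other retinal cells (239 CPM in all other cells). The 20 leading genes, Trpm1 and Car8 of the rule among them, had a median of -0.15, with 18 below 0. They were chosen on these same cells, so this count is a description and not a test. The 7 mitochondrially encoded genes tested, of 11 in the matrix, were all below 0, with a median of -0.18. Over all genes, 5531 of 11332 were below 0. The shared direction of these 7 was not tested and is a description.

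RNA of other cells in rod bipolar cells varied between mice, and the group ranges of summed rod, cone and Müller glia markers overlapped. The rod sum was highest in dKO mouse S07 and the cone sum in control mouse S02. All 10 rod markers had log2 fold changes above 0 (median 0.41) and all 5 cone markers below 0 (median -0.72), none past the test. Above 0 were also all 3 RPE markers tested (median 0.98), all 3 endothelial markers tested (median 0.04) and 5 of 6 Müller glia markers (median 0.24). Below 0 were 6 of 7 amacrine markers (median -0.02) and both ganglion (median -0.64) and both pericyte markers tested (median -0.70). Summed rod markers made up 0.102% to 0.738% of rod bipolar UMIs in control and 0.0758% to 0.886% in dKO mice, cone markers 0.0145% to 0.0926% and 0.0125% to 0.0589%, and Müller glia markers 0.00840% to 0.0491% and 0.0142% to 0.0675%. None of the 10 rod markers was at 0 in any mouse. The rod share was 0.288% ± 0.303 (SD, n = 4) against 0.365% ± 0.355 (SD, n = 5) and did not differ beyond the spread of the mice (exact permutation test, two-sided, p = 0.794, adjusted 0.889). Markers of amacrine, horizontal, ganglion, RPE, microglial, pericyte and endothelial cells each stayed at or below 0.0241% in every mouse.

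**Figure D4:**
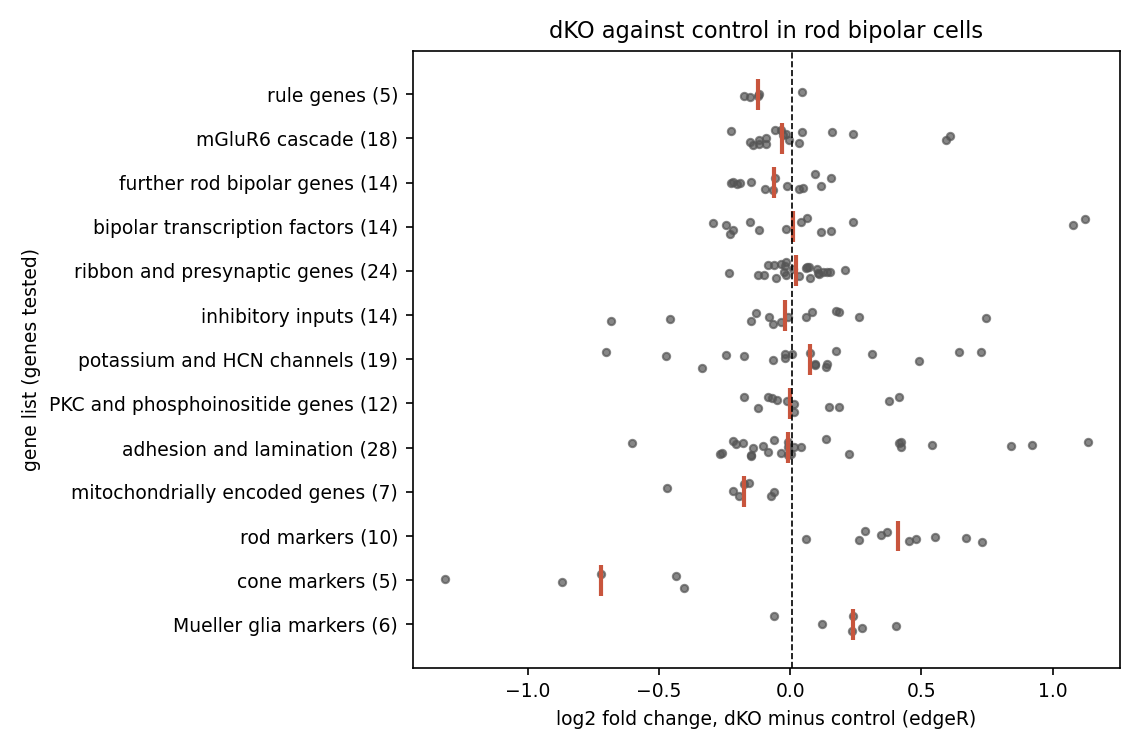
Each grey point is the log2 fold change (dKO minus control, edgeR) of 1 gene of a list in rod bipolar cells, the red bar is the median of the list, the number beside its name is how many of its genes were tested, and the dashed line is the median of all genes (0.0064). Lists of rod bipolar function sit around 0, the rod markers lie above it and the cone markers below it, and no gene shown passed the test.

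The genes with the smallest unadjusted p at 20 CPM or more are named as a description, since the contrast chose them and none passed the adjustment. Tut7, a terminal uridylyltransferase that acts on RNAs including microRNA precursors, was at 64.2, 52.3, 54.5 and 57.9 CPM in control and 86.5, 69.2, 82.2, 72.3 and 74.9 CPM in dKO mice. Every dKO mouse was above every control mouse, with a log2 fold change of 0.40 ± 0.12 (SE). Stat3, the transcription factor of cytokine signalling, was at 72.2 to 103 CPM in control and 109 to 144 CPM in dKO mice (log2 fold change 0.39 ± 0.16, SE). Its log2 fold change in ON cone bipolar cells of the same mice was 0.47, which did not pass the test there either. In rod bipolar cells that of Stat3 was 0.24 by a stricter form of the rule and 0.28 without the 5% of cells highest in UMIs. It was 0.29 without S08 and 0.29 without S01. The others higher in dKO mice were Zfp738, Plcd3, Bphl, Usp38, Acsf3, Trf, Tecpr2 and Aktip, with log2 fold changes from 0.39 to 1.37, and Bphl and Usp38 did not overlap between the groups either. The highest of these, that of Trf, was 0.32 without candidate doublets, 0.30 by a stricter form of the rule, 0.39 without the 5% of cells highest in UMIs and 0.89 without S08. That of Plcd3 was 0.93, and 0.44 without S04, S05 and S07.

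Among the genes lower in dKO mice, Cyld, a deubiquitinase that limits NF-kappaB signalling, was at 290, 281, 285 and 275 CPM in control and 169, 169, 193, 241 and 250 CPM in dKO mice. The control values lay close together and all above those of dKO mice, with a log2 fold change of -0.47 ± 0.16 (SE) in rod bipolar and -0.38 in ON cone bipolar cells. The largest difference of the 10 was that of Ttn, titin, at 95.1 ± 33.4 and 51.9 ± 18.3 CPM (log2 fold change -0.87 ± 0.29, SE). Trit1, Anxa6, Adamts6, Fam114a2, Septin4, Phyhd1 and Cttnbp2nl had log2 fold changes from -0.61 to -0.36, and Adamts6 and Fam114a2 did not overlap between the groups. Septin4, at -0.52, was at -0.29 without control mouse S02, at -0.17 without candidate doublets and at -0.19 without the 5% of cells highest in UMIs. Adamts6, at -0.53, was at -0.34 without S04, S05 and S07.

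No gene passed the test of a different response in rod bipolar and ON cone bipolar cells. The difference between the dKO effects of the types, with the mouse as a block, gave 0 calls among 11008 genes (0%, edgeR) and 238 genes (2.16%) at an unadjusted p under 0.05, and limma-voom gave 0 calls as well. The same step on simulated counts recovered 57% of genes whose log2 effects lay 2 apart and 8% of genes whose log2 effects lay 1 apart. In ON cone bipolar cells alone, 0 of 9481 genes were called, with 190 at an unadjusted p under 0.05.

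Of 20 genes that the study names in its single-cell results, 13 could be tested in rod bipolar cells, and 0 were called (median log2 fold change 0.0020). Gdf11, a TGF-beta family ligand, was at 5.36 CPM in control and 2.99 CPM in dKO mice, and Mlec, an ER lectin, at 24.9 and 26.5 CPM. Gdf11 was below ON cone bipolar cells in all 9 mice (4.05 ± 2.72 against 32.2 ± 8.31 CPM). Pax6, Meis2, Mitf, Ezr and Rab22a, which the study links to the microRNAs, had log2 fold changes from -0.10 to 0.43 (median 0.18, 0 of 5 called).

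Apart from sex-linked genes and genes at 0 in the mice with the fewest cells, the widest gaps in rod bipolar expression were between single mice and did not follow the groups. Gnat3, the gene of gustducin, the G protein alpha subunit of taste cells and a relative of the transducins, was at 173 CPM in control mouse S01 and 128 CPM in dKO mouse S06. In the other 7 mice it was at 0 to 5.44 CPM. It had a UMI in 128 of 185 rod bipolar cells of S01 and in 130 of 196 of S06. In the same mice it was at 4.08 and 0 CPM in ON cone bipolar cells and at 1.40 and 1.12 CPM in the remaining cells (0.207 to 0.457 CPM in those of the 7 other mice), and 88.5% and 90.3% of all Gnat3 UMIs of S01 and S06 were in rod bipolar cells. The gene lies on the plus strand at chr5:18167547-18225473, and its neighbours Cd36 and Gnai1 were at most at 3.24 and 7.25 CPM in rod bipolar cells of any mouse.

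A group of adjacent lncRNA genes on chromosome 13 was detected in bulk in S01 alone. Gm3772 (chr13:70170078-70268068) was at 239 CPM in rod bipolar cells of S01, in 152 of 185 cells, and at most at 0.817 CPM in those of any other mouse. AU017674, which lies 18.9 kb further on the same strand, was at 77.3 CPM in S01 and at most at 0.405 CPM elsewhere. Of the UMIs of S01, 95.7% for Gm3772 and 95.1% for AU017674 were in rod bipolar cells, and its ON cone bipolar cells held Gm3772 at 0.510 CPM. Over the 315 kb from 4933416O17Rik to 4930520P13Rik, 6 annotated transcripts had 38, 19, 784, 24, 254 and 6 UMIs in rod bipolar cells of S01, and together 10 UMIs in those of the 8 other mice. The coding genes on either side, Med10 and Ice1, were found in rod bipolar cells of all 9 mice. Within S01, 107 cells held both Gm3772 and Gnat3, 45 only Gm3772, 21 only Gnat3 and 12 neither, and S06 held Gnat3 with 1 UMI of Gm3772.

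Rn7sk, the 7SK RNA that holds the elongation factor P-TEFb and a gene that the study names, was high in 1 mouse too, but in all 3 cell classes. It was at 426 CPM in rod bipolar cells of dKO mouse S07 and at 7.35 to 45.1 CPM in those of the 8 others. In ON cone bipolar cells and the remaining cells of S07 it was at 292 and 514 CPM. It had a UMI in 51 of 78 rod bipolar cells, 20 of 42 ON cone bipolar cells and 2869 of 4584 remaining cells of S07.

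**Figure D5:**
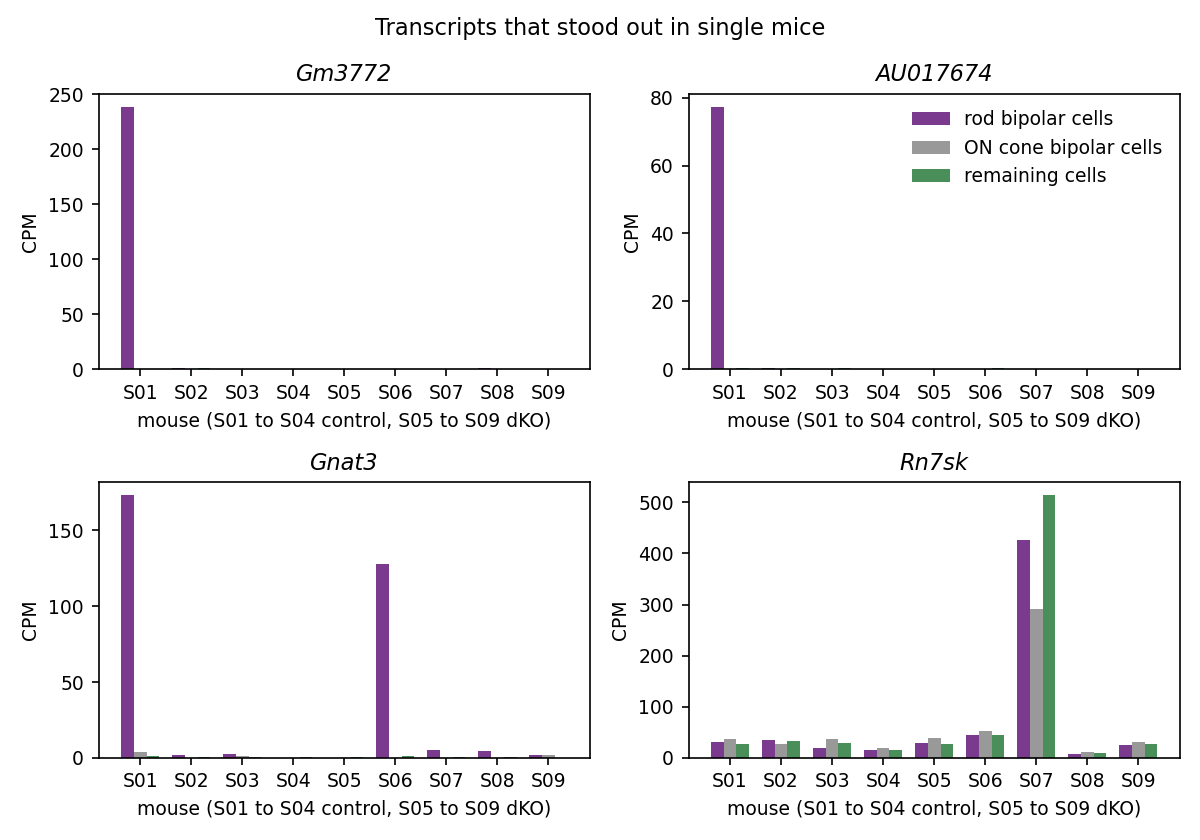
Bars give CPM in each mouse (S01 to S04 control, S05 to S09 dKO) for rod bipolar cells (purple), ON cone bipolar cells (grey) and the remaining cells (green). Gm3772 and AU017674 stand out in rod bipolar cells of S01 (239 and 77.3 CPM), Gnat3 in those of S01 and S06 (173 and 128 CPM), and Rn7sk in all cell classes of S07.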

How the data were processed

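Single-cell RNA-sequencing of the retina was analysed from the deposited UMI counts, whole numbers per gene and cell that the authors made with split-pipe on GRCm39 and deposited without normalization. The submitters' processing notes also name R 4.2.2 and Seurat 4.3.0. Rod bipolar cells were found by the stated rule. The members and the gene lists were chosen with earlier results of these data known. Counts were summed per mouse and tested with edgeR 4.0.16 in R 4.3.3 (quasi-likelihood, TMM, filterByExpr, Benjamini-Hochberg, threshold 0.05), after a check on simulated data. DESeq2 1.42.0 and limma 3.58.1 were alternatives. Values with 1 number per mouse went into two-sided exact permutation tests in SciPy. CPM uses plain totals, whereas tests use TMM. Rod bipolar UMIs per mouse ranged from 345297 to 4855637. Free RNA and doublets were not removed. Named genes were the rule genes, members of reported lists, those of the smallest p (10 in each direction, mean of at least 20 CPM), those the study names, and leading genes by ratio, except a few that are not reported here. Gene positions are from GENCODE M39 and sequences from RefSeq (GRCm38.p6), placed on GRCm39 by exact match. A group has 4 or 5 mice, which limits precision. Of 351 list entries, 5 names were not found in the matrix.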

Additional observations from a re-analysis of the deposited data

Results flagged for a closer look

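For each value given per mouse, the gap between the most extreme mouse of a group and its nearest neighbour was set against the range of the group with Dixon's criterion at its 95% level. Chance flags about 1 in 20 groups, and 16 of 98 were flagged here. The 98 include Gm3772, AU017674, Gnat3 and Rn7sk, which were picked because mice stood far apart in them. They also include the genes of smallest p, chosen on these same values. The 16 flags therefore cannot be set against the chance rate.

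In control mice, S01 was far above the others for Gm3772 (238.7 CPM, next 0.811), AU017674 (77.3 CPM, next 0.405) and Gnat3 (173.2 CPM, next 2.31). S04 was highest in the share of rod marker RNA (0.738%, next 0.194%) and in Adamts6 (159.3 CPM, next 110.7) and lowest in Aktip (26.1 CPM, next 35.5), on the smallest number of rod bipolar cells of any mouse.

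In dKO mice, S06 was far above the others for Gnat3 (128.1 CPM, next 5.44) and for the median UMIs per rod bipolar cell (21052, next 16061). Its AU017674 value was flagged at 0.206 CPM, which is 1 UMI and under the limit of 3 UMIs. S07 was highest in Rn7sk (425.9 CPM, next 45.1) and lowest in Gnb3 (222.9 CPM, next 336.6), Gpr179 (477.8 CPM, next 817.9) and Fam114a2 (84.0 CPM, next 103.8). S08 was highest in Stat3 (144.2 CPM, next 114.7). S09 was lowest in Acsf3 (22.8 CPM, next 30.3) and in the share of ON bipolar cells that were rod bipolar cells (55.7%, next 63.6%).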

How the results depend on the processing

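The count of genes called between dKO and control rod bipolar cells, and of list genes called, stayed at 0 under all alternatives, including each mouse left out, so that these counts of 0 say little about stability. Leaving out candidate doublets, and leaving out S04, S05 and S07 from the comparison with ON cone bipolar cells, were chosen after seeing the data. The comparison of dKO effects with ON cone bipolar cells gave 26 calls without a filter on low counts (0 otherwise), 12 higher and 14 lower, when 28696 genes were tested. Without dKO mouse S09, 315 genes had an unadjusted edgeR p under 0.05, against 119 to 162 without any other mouse. The cause was not tested.

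Directions of the single values turned. With each mouse left out, the difference in the rod bipolar share (main -0.198 percentage points) ranged from -1.10 to 0.460, in the share of ON bipolar cells (main 2.52) from 0.564 to 4.24, in median UMIs (main 986) from -146 to 1441, and in the share of rod RNA (main 0.0767) from -0.0536 to 0.227. The share of ON bipolar cells was -1.62 by the stricter rule and -0.0674 with cells thinned to 3000 UMIs. Without S04, S05 and S07, rod RNA was at -0.0190 and the log2 fold changes of Trpm1, Prkca, Car8 and Sebox were 0.0789, 0.0487, 0.16 and 0.13. That of Grm6 was -0.0054 without cells high in rod RNA and -0.0247 without candidate doublets. With each mouse left out, it ranged from -0.0377 to 0.15, Car8 from -0.32 to 0.0041 and Sebox from -0.30 to 0.0574. The 20 genes of smallest p, chosen on these mice, did not turn, although some shrank as given in the report.

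No paired analysis was possible because control and dKO mice share no replicate numbers. Depth limits the mice S04 and S05 most, where 3 UMIs are 8.69 and 6.49 CPM.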

Other observations

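Of 17 clock genes at 20 CPM or more, 2 (11.8%, beside 5.15% of all genes) were above ON cone bipolar cells without overlap in the 9 mice, Per3 (135 ± 27.2 against 85.8 ± 10.9 CPM, SD) and Rorb (971 ± 40.1 against 737 ± 31.4 CPM). A further 2 (11.8%, beside 7.04%) were below, Hlf (391 ± 83.3 against 857 ± 87.7 CPM) and Rora (3721 ± 217 against 7590 ± 518 CPM). Between dKO and control mice, 0 of the 18 clock genes tested were called, with a median log2 fold change of -0.02.

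Of 14 potassium and HCN channel genes at 20 CPM or more, 1 (7.14%, beside 5.15% of all genes) was above ON cone bipolar cells without overlap. A further 2 (14.3%, beside 7.04%) were below. The share above was near that of all genes. Kcnc1, a fast delayed rectifier, was above in all 9 mice (129 ± 26.2 against 29.7 ± 10.5 CPM), and Kcnb2 and Kcnab1 were below. Of 9 protein kinase C and phosphoinositide genes outside the rule, 0 (0%, beside 5.15%) were above without overlap and 4 (44.4%, beside 7.04%) below. Prkcb, a protein kinase C isoform that the rule did not use, was at 175 ± 74.6 CPM in rod bipolar and 979 ± 134 CPM in ON cone bipolar cells.

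In S07, 39 of 78 rod bipolar cells held UMIs of both Xist and a Y-linked gene, against 9 of 22 in S04 and 11 of 28 in S05. Xist was at 1578 CPM or more in the other 6 mice and at most at 41.1 CPM in these 3.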
